A study of Mus musculus with 60 samples.

Results

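Gene expression was compared in the striatum of Glo1 knockout (KO) mice that had eaten a diet lacking vitamin B6 (VB6) and of wild-type (WT) mice that had eaten a normal diet. The 10 libraries were chosen by their labels alone, 5 KO mice on the lacking diet and 5 WT mice on the normal diet, out of 60 libraries from 3 brain regions of 20 mice. The lacking diet held 5 µg and the normal diet 1.4 mg of VB6 per 100 g of pellets, and both were given from week 8 to week 12 of life. Genotype and diet therefore differed together between the groups, and every KO library carried batch label 1 and every WT library batch label 2, so that genotype, diet and batch cannot be told apart in this comparison. Strain, sex, the way the knockout was made and the meaning of the batch label were not given in the sources used here. The 10 remaining striatal libraries, from 5 KO mice on the normal diet and 5 WT mice on the lacking diet, served as a second comparison between other mice. They also entered the fit of the first comparison, where they took part in the gene filter and the estimate of spread. Its p-values are therefore not independent of them.

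Glo1 encodes glyoxalase I, the enzyme that, with glutathione, clears methylglyoxal, a reactive by-product of glycolysis that attaches to proteins and nucleic acids. Vitamin B6 in its active form, pyridoxal phosphate, is the cofactor of many enzymes of amino acid and neurotransmitter metabolism, among them those that make dopamine, serotonin and GABA, and pyridoxamine can trap reactive carbonyls such as methylglyoxal. The striatum consists mainly of GABA-releasing medium spiny neurons that receive dense dopamine input from the midbrain.

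The VB6 level recorded for the mice, in a material the labels did not name, was between 2.25 and 5.63 ng/µl in the KO mice on the lacking diet and between 58.25 and 77.48 ng/µl in the WT mice on the normal diet. The means were 3.72 ± 1.44 and 64.2 ± 7.91 ng/µl (SD, n = 5 each), with no overlap (exact permutation test of the difference in means, two-sided, p = 0.00794, the smallest this design can give). Libraries held 8372913 to 13384356 counts, at which 3 counts correspond to 0.224 to 0.358 CPM (counts scaled to the library total), and the mean RNA integrity numbers were 8.64 ± 0.207 and 8.68 ± 0.205 (SD, n = 5 each). Markers of medium spiny neurons were high in the tissue labelled striatum. In the WT mice on the normal diet the dopamine receptor gene Drd1 was at 141 RPKM (the deposited read density per transcript length and library total) in striatum against 5.46 in prefrontal cortex and 1.85 in hippocampus, and Penk, which encodes an opioid peptide precursor, was at 954 RPKM in striatum. A number of libraries stood apart. KO mouse 339 on the lacking diet had the highest level of the glutamatergic cortical marker Slc17a7, 32.3 RPKM against 5.30 to 12.0 in the other KO mice and 9.29 to 20.4 in the WT mice, and KO mouse 452 had the lowest level of Drd2, 68.1 RPKM against 114 to 125 in the other KO mice and 95.1 to 144 in the WT mice. WT mouse 317 lay between the genotypes for part of the genes described here, as detailed further on. The number of called genes is given with and without the libraries of mice 317, 339 and 452. Most other counts are given with all libraries only.

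Of 13311 genes tested, 11 (0.0826%) passed a Benjamini-Hochberg adjusted p of 0.05 in edgeR's quasi-likelihood test, 4 of them higher (0.0301%) and 7 lower (0.0526%) in the KO mice on the lacking diet. Apart from Glo1 itself, these were Atp6v0c, Gnptg, Ppil1, Decr2, Pla2g7 and Rps2, which fell, and Slc22a3, Zfp760, Zfp983 and Mut, which rose. All 11 genes lie on chromosome 17, which carries Glo1 and 624 of the genes tested, and 0 of 12656 genes tested on the other chromosomes passed, where edgeR gave 586 an unadjusted p below 0.05 and DESeq2 called 1, Cryab. An unadjusted p below 0.05 was found for 673 genes (5.06%), where 666 would be reached by number alone. The count of 11 became 15 without WT mouse 317, 14 without KO mouse 339, 9 without KO mouse 452 and 7 without WT mouse 283. The count at an unadjusted p below 0.05 moved by more, to 1245 without KO mouse 339, 1202 without WT mouse 273 and 403 without WT mouse 283.

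**Figure D1:**
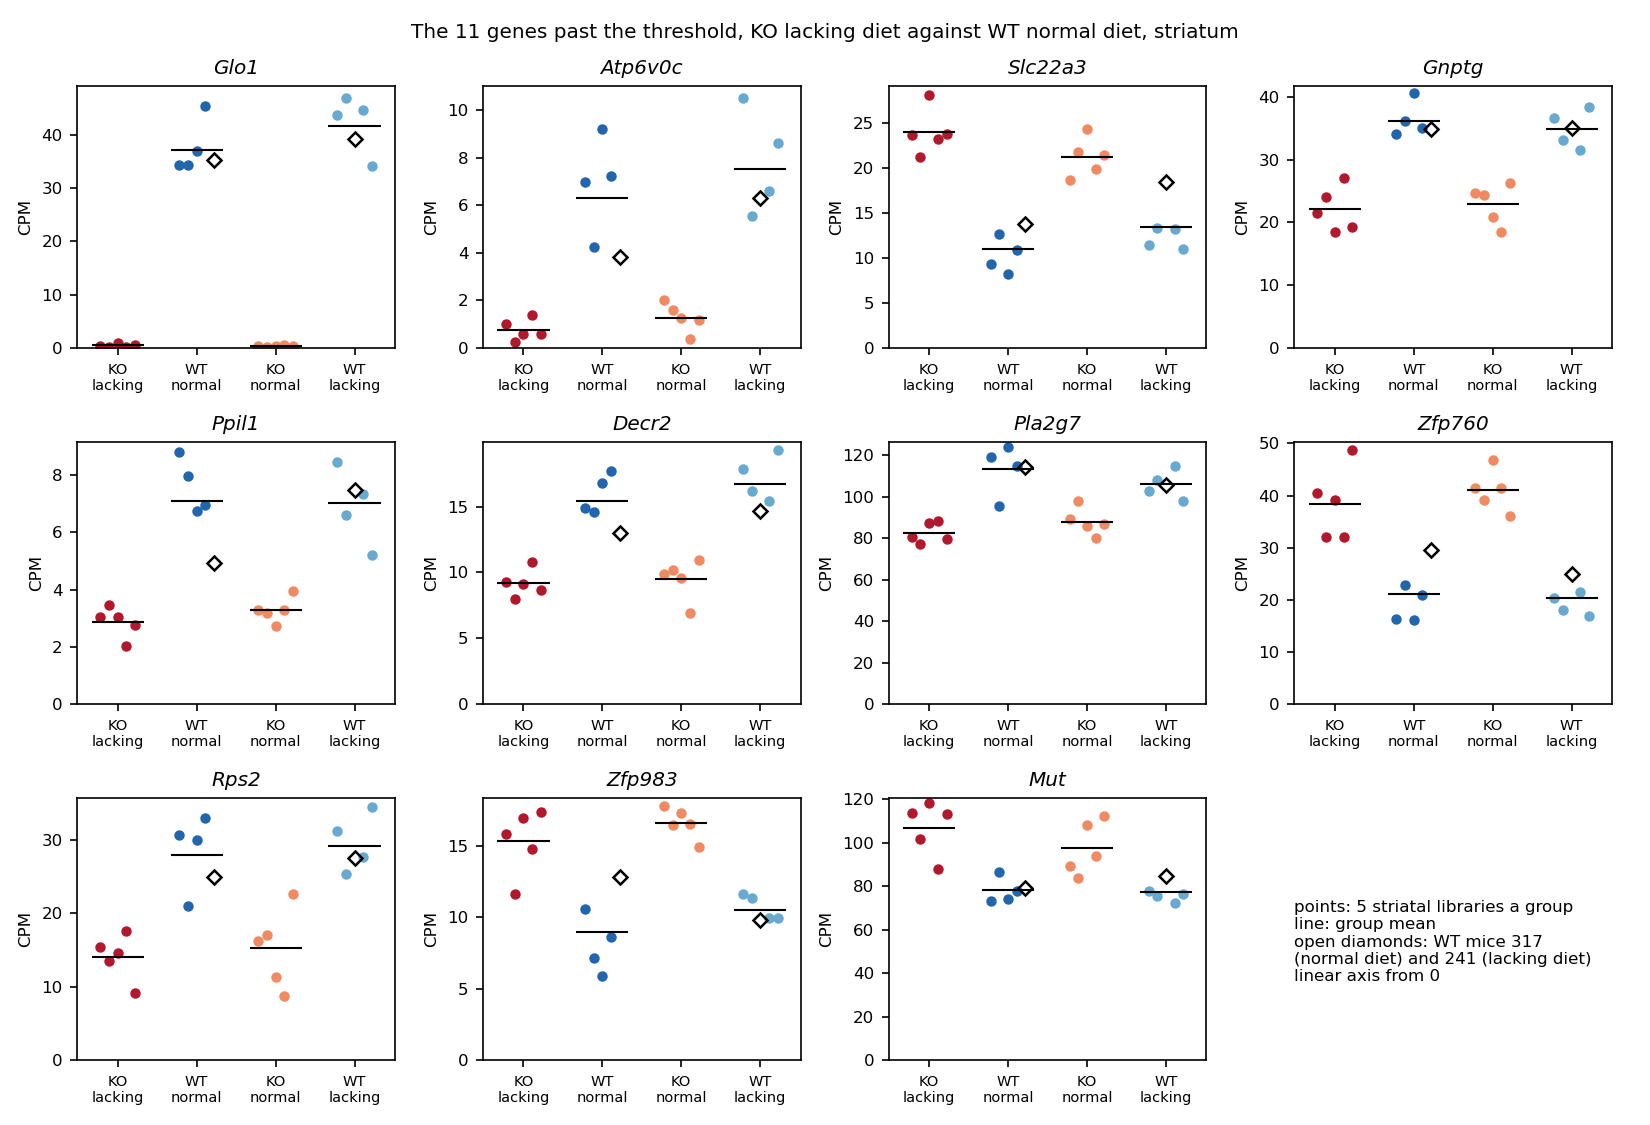
CPM (linear axes from 0) of the 11 genes past the threshold in each striatal library of the 4 groups; points are libraries, lines are group means and open diamonds are WT mice 317 and 241. Glo1 is between 0.176 and 1.01 CPM in the KO mice on the lacking diet and between 34.2 and 45.4 CPM in the WT mice on the normal diet, and in 10 of the 11 panels these 2 groups do not overlap.

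The sequences just upstream of the 3 genes with the smallest p are shown because these genes set the size of the comparison, with Glo1 checking the knockout and Atp6v0c and Slc22a3 being the fall and the rise with the smallest p beside it. Each is the 250 bases before a RefSeq transcription start (GRCm38.p6), all on the minus strand and written 5′ to 3′. For Atp6v0c 3 starts are listed, and the first listed was taken. They lie at chr17:30612660-30612909 (Glo1), chr17:24169679-24169928 (Atp6v0c) and chr17:12507705-12507954 (Slc22a3). Capitals mark the GC box GGGCGG and the CCAAT box CCAAT on either strand, and the TATA box TATAAA was searched in the same way without a match in the 3 windows.
Glo1: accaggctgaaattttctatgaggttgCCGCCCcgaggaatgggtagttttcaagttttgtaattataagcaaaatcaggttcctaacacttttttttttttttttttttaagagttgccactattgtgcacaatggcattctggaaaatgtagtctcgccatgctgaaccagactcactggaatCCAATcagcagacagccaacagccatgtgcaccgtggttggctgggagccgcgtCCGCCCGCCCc
Atp6v0c: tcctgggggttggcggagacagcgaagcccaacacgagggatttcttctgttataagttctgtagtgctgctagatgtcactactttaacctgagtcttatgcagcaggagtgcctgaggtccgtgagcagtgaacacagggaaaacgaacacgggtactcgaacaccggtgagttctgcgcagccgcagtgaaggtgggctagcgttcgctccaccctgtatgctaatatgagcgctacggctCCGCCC
Slc22a3: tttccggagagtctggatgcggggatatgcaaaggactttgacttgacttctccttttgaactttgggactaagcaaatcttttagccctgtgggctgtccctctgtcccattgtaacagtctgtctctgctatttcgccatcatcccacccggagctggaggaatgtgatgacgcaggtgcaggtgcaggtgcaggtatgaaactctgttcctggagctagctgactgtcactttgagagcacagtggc
Among the 11 genes 10 had a promoter entry, of which 7 held a GC box, 4 a CCAAT box and 1 a TATA box. Of 27025 upstream windows of the same length, 32.9% held a GC box, 34.5% a CCAAT box and 13% a TATA box. Those windows were not limited to the genes tested here, so the shares are not directly comparable. These matches describe letters and say nothing of binding.

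Glo1 was measured at 0.389, 0.239, 1.01, 0.176 and 0.607 CPM in the 5 KO mice on the lacking diet and at 34.2, 34.4, 36.9, 45.4 and 35.3 CPM in the 5 WT mice on the normal diet. The KO libraries thus held a trace of Glo1 reads, 2 to 10 counts each, far below every WT library, as their genotype labels require. The means were 0.485 ± 0.339 and 37.2 ± 4.66 CPM (SD, n = 5 each), a log2 fold change of -6.21 (SE 0.221, adjusted p = 1.29e-15). That SE was derived from the F statistic and is too small for the few counts of the KO libraries. In the KO mice on the normal diet Glo1 was at 0.430 ± 0.164 CPM and in the WT mice on the lacking diet at 41.7 ± 5.03 CPM (SD, n = 5 each). Between diets within the KO the log2 fold change of Glo1 was 0.22 (SE 0.429, adjusted p = 1.00).

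The gene with the next smallest p was Atp6v0c, which encodes the proteolipid subunit of the membrane sector of the vacuolar proton pump that acidifies lysosomes and synaptic vesicles. It was at 1.01, 0.239, 0.608, 1.41 and 0.607 CPM in the KO mice on the lacking diet and at 6.99, 4.26, 9.22, 7.25 and 3.81 CPM in the WT mice on the normal diet. The groups did not overlap, and the lowest WT value belonged to mouse 317. The log2 fold change was -2.92 (SE 0.334, adjusted p = 4.59e-05), from 6.31 ± 2.25 to 0.775 ± 0.447 CPM (SD, n = 5 each). These are few counts for the gene: the 24 subunit genes of the pump together held a median of 2962 CPM in the WT mice on the normal diet. Of the 75-base stretches of its transcripts, the length of the reads, 9.24% also occur in 2 annotated pseudogene copies of Atp6v0c. Reads from these stretches cannot be assigned to Atp6v0c by sequence alone, and how the counting treated them is not given in the sources used here.

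Gnptg also belongs to lysosome biology: it encodes a subunit of the phosphotransferase that starts the mannose 6-phosphate tag by which hydrolases reach the lysosome. It was at 21.6, 24.1, 18.4, 27.1 and 19.3 CPM in the KO mice on the lacking diet against 34, 36.1, 40.6, 35 and 34.8 CPM in the WT mice on the normal diet. No library overlapped and the log2 fold change was -0.68 (SE 0.0972, adjusted p = 0.00106). Unkl on the opposite strand overlaps 49.5% of the exon bases of Gnptg, and with strand-specific counting not stated in the sources used here, reads of both genes cannot be told apart.

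Slc22a3, the organic cation transporter 3, which takes up dopamine and other monoamines outside neurons, rose with the smallest p. It was at 23.7, 21.1, 28.1, 23.2 and 23.8 CPM in the KO mice on the lacking diet and at 9.28, 12.7, 8.19, 10.9 and 13.8 CPM in the WT mice on the normal diet. Every KO library exceeded every WT library, and the log2 fold change was 1.16 (SE 0.148, adjusted p = 2.23e-04). Its level depended on the region: in WT mice on the normal diet it was at 3.13 ± 0.663 RPKM in striatum, 0.470 ± 0.0960 in prefrontal cortex and 0.0946 ± 0.0837 in hippocampus (SD, n = 5 each). In prefrontal cortex, for the same contrast, its log2 fold change was -0.28 (SE 0.387, adjusted p = 0.79), and the difference of the striatal from the prefrontal effect was 1.44 (SE 0.417, unadjusted p = 0.00103, adjusted p = 0.96). The difference of the striatal from the hippocampal effect, where the gene had few counts, was -0.02 (SE 0.226, unadjusted p = 0.941). Both differences came from an edgeR fit of all 60 libraries that did not account for each mouse having given all 3 regions. Neither difference passed in edgeR or in limma on log2(RPKM + 0.1), and both passed in limma on log2(RPKM + 1). At the low RPKM of the other regions, adding 1 shrinks any change there towards 0. The last setting therefore cannot decide whether the fold change differs between regions.

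Genes of lipid and propionate metabolism were among those that passed. Decr2, a peroxisomal reductase needed to degrade unsaturated fatty acids, was at 9.27, 8, 9.12, 10.8 and 8.67 CPM in the KO mice on the lacking diet and at 14.9, 14.6, 16.8, 17.7 and 13 CPM in the WT mice on the normal diet. Pla2g7, the acetylhydrolase that inactivates platelet-activating factor, was at 80.4, 77.3, 87.1, 88.1 and 79.8 CPM against 119, 95.8, 124, 115 and 114 CPM. Mut, the mitochondrial methylmalonyl-CoA mutase, which depends on vitamin B12, was at 114, 102, 118, 88 and 113 CPM against 73.2, 86.5, 74.3, 77.9 and 79 CPM. Neither Decr2, Pla2g7 nor Mut overlapped between the groups, though KO mouse 339 and WT mouse 273 came close for Mut. Their log2 fold changes were -0.72 for Decr2 (SE 0.118, adjusted p = 0.00650), -0.43 for Pla2g7 (SE 0.0717, adjusted p = 0.00747) and 0.49 for Mut (SE 0.0967, adjusted p = 0.0492). The call of Pla2g7 was lost in the fit of the 2 compared groups alone (adjusted p = 0.0589). The call of Mut was lost there, with the RNA integrity number as a covariate and in limma on log2(RPKM + 0.1), and held in 2 of the 10 fits that left out 1 library each, those without KO mouse 339 or WT mouse 273, and its adjusted p reached 0.235 over all alternatives.

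Among genes of RNA and protein synthesis, Ppil1, a prolyl isomerase of the spliceosome, was at 3.04, 3.46, 3.04, 2.02 and 2.77 CPM in the KO mice on the lacking diet and at 8.82, 7.96, 6.74, 6.95 and 4.94 CPM in the WT mice on the normal diet. No KO library reached a WT library, and WT mouse 317 again had the lowest WT value. The log2 fold change of Ppil1 was -1.28 (SE 0.185, adjusted p = 0.00106). Rps2, a protein of the small ribosomal subunit, was at 15.4, 13.5, 14.6, 17.5 and 9.19 CPM against 30.7, 20.9, 29.9, 33 and 24.9 CPM, without overlap, and had a log2 fold change of -0.96 (SE 0.174, adjusted p = 0.0171). Other genes, mostly Rps2 pseudogenes, share 36.0% of the 75-base stretches of Rps2, and its call was lost without KO mouse 244 or 452 or WT mouse 272, 283 or 286 and in limma on log2(RPKM + 0.1), with an adjusted p of at most 0.0991 over all alternatives.

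A pair of zinc finger genes that lie close together rose. Zfp760 was at 40.6, 32, 39.1, 32 and 48.6 CPM in the KO mice on the lacking diet and at 16.4, 22.9, 16.1, 20.9 and 29.6 CPM in the WT mice on the normal diet. For Zfp983 the values were 15.8, 11.6, 16.9, 14.8 and 17.3 CPM against 10.5, 7.10, 5.91, 8.59 and 12.8 CPM. Zfp760 did not overlap, whereas for Zfp983 WT mouse 317 lay above KO mouse 244. The log2 fold changes were 0.90 for Zfp760 (SE 0.153, adjusted p = 0.00810) and 0.81 for Zfp983 (SE 0.155, adjusted p = 0.0318). The call of Zfp760 was lost without WT mouse 272 or 283 and in the fit of the 2 compared groups alone, with an adjusted p of at most 0.0630 over all alternatives. That of Zfp983 was lost without KO mouse 242, 325 or 452 or WT mouse 273, 283 or 286, without TMM factors and in the 2-group fit, with an adjusted p of at most 0.265.

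The position of the genes on chromosome 17 was examined in windows around Glo1. Within 5 Mb of Glo1, 3 of 193 genes tested were called (1.55%), between 5 and 20 Mb 8 of 232 (3.45%), and beyond 20 Mb 0 of 199, where edgeR gave 17 genes an unadjusted p below 0.05. The shares with an unadjusted p below 0.05 were 12.4% within 5 Mb, 19.8% from 5 to 20 Mb, 8.54% beyond 20 Mb and 4.63% on the other chromosomes as one set. Over chromosome 17 as a whole the share was 13.9%, and over the other autosomes and X it was between 3.37% and 6.90%, the highest on X, while on Y 0 of 4 genes tested had such a p. The called genes ranged from 18.1 Mb before Glo1 (Slc22a3, chr17:12418960-12507704) to 13 Mb after it (Pla2g7, chr17:43568098-43612201), and both directions occurred from 5 to 20 Mb, with 4 higher and 4 lower. Within 5 Mb all 3 called genes, Glo1, Ppil1 and Decr2, were lower.

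**Figure D2:**
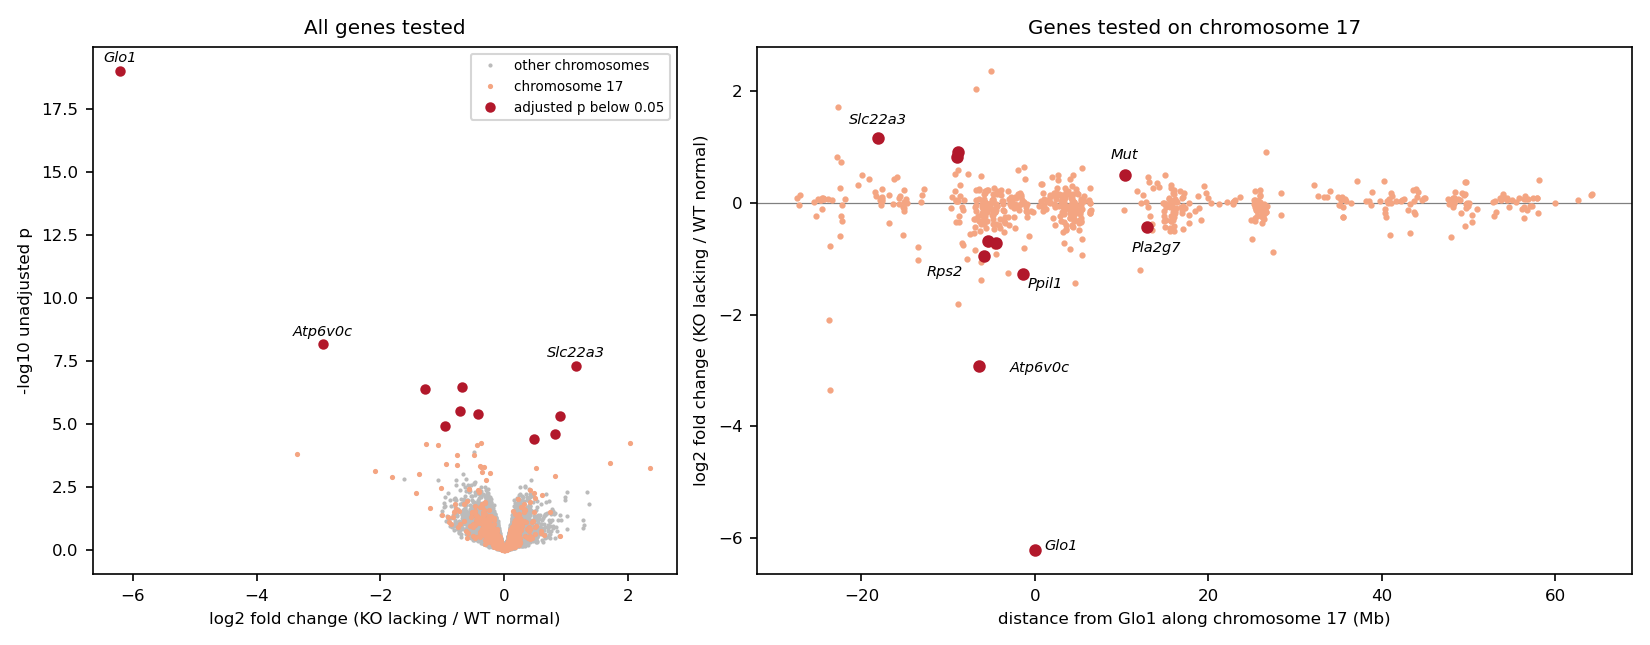
Left, log2 fold change (KO mice on the lacking diet over WT mice on the normal diet) against -log10 of the unadjusted p for the 13311 genes tested; right, log2 fold change of the 624 genes tested on chromosome 17 against distance from Glo1 in Mb. Filled red points are the 11 genes past the threshold, which lie on chromosome 17 within 20 Mb of Glo1.

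The next 14 genes by p whose libraries did not overlap between the groups did not pass the threshold, and 13 of them also lie on chromosome 17. Non-overlap was found for 97 of the 13311 genes (0.729%), 28 higher (0.210%) and 69 lower (0.518%). The gene next in order was Prss41, a serine protease gene, at 5.92, 6.21, 6.48, 6.51 and 6.24 CPM in the KO mice on the lacking diet and 1.72, 0.663, 1.04, 0.598 and 4.12 CPM in the WT mice on the normal diet, the last being mouse 317. Its log2 fold change was 2.02 (SE 0.413, adjusted p = 0.0553). Hmga1, an architectural protein of chromatin, had a log2 fold change of -1.26 (SE 0.259, adjusted p = 0.0553), and Eci1, a mitochondrial isomerase for unsaturated fatty acids, one of -1.07 (SE 0.222, adjusted p = 0.0553). Eci1 and Dnase1l2, a deoxyribonuclease gene with a log2 fold change of -1.38 (SE 0.365, adjusted p = 0.395), are neighbours on chromosome 17, as are Rps2 and the complex I gene Ndufb10 (-0.39, SE 0.0960, adjusted p = 0.255).

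The paralogs Tagap and Tagap1, named for a GTPase-activating protein of T cells, differed in opposite directions. Tagap was at 3.62 ± 0.438 CPM in the KO mice on the lacking diet and 1.07 ± 0.815 CPM in the WT mice on the normal diet (SD, n = 5 each), and Tagap1 at 3.22 ± 0.656 and 5.65 ± 1.61 CPM. Their adjusted p were 0.216 and 0.234. On either strand, 50.1% of the 75-base stretches of Tagap and 66.5% of those of Tagap1 occur in other genes, including each other. E430024P14Rik on the opposite strand overlaps 23.2% of the exon bases of Tagap. Reads from shared stretches cannot be assigned to a single gene by sequence alone, and how the counting treated them is not given in the sources used here. The same holds for Rsph3b (60.4%, shared with Rsph3a) and Hmga1 (46.9%, shared with Hmga1b). Of the other named genes, Paqr4, Enpp4, Zfp758, Prr18 and Nfya had log2 fold changes of -0.44, -0.50, -0.76, -0.33 and -0.36. S100a13, a calcium-binding protein gene on chromosome 3, had a log2 fold change of -0.66 (SE 0.177, adjusted p = 0.395) and was the only one of the 25 named genes off chromosome 17.

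The comparison was then set beside that of the 10 other striatal mice, KO on the normal diet against WT on the lacking diet, in which the diets were exchanged between genotypes and the batch labels again coincided with genotype. There 10 of 13035 genes (0.0767%) passed, 2 higher (0.0153%) and 8 lower (0.0614%), all on chromosome 17, and 7 of them were among the 11. All 11 genes had the same direction in both sets of mice and an unadjusted p below 0.05 in the other mice. The fit that called the 11 also held the libraries of the other mice. In the fit of the 2 compared groups alone, 7 of the 11 passed, without Mut, Pla2g7, Zfp760 and Zfp983. For Glo1 the log2 fold change in the other mice was -6.57 (SE 0.202), for Atp6v0c -2.46 (SE 0.272), for Slc22a3 0.70 (SE 0.142, adjusted p = 0.135) and for Zfp760 1.06 (SE 0.119). Of the next genes by p, 12 of the 13 fitted in both sets had the same direction; the exception was S100a13 (0.18, SE 0.164). The same direction was found for 58.9% of the 13032 genes tested in both sets. Among genes with an unadjusted p below 0.05 in the first comparison it was 86.4% on chromosome 17 (70 of 81) and 58.9% elsewhere (339 of 576). All genes tested in both sets gave 69.4% on chromosome 17 (412 of 594) and 58.4% on other chromosomes (7246 of 12409). The number of genes called in the other mice was less stable, at 3 with the RNA integrity number as a covariate. It was 3 without KO mouse 267, 268 or 368 or WT mouse 225, 226 or 246, 4 without KO mouse 381 or WT mouse 259, 9 without KO mouse 390 and 10 without WT mouse 241. Without mouse 241 the list itself changed, with 6 higher, 4 lower and 5 shared with the calls of the full set. Gnptg, Pkmyt1, Ppil1, Tagap1 and Zfp983 were lost there, and Fndc1, Prss41, Slc22a3, Sstr5 and Tagap were gained.

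**Figure D3:**
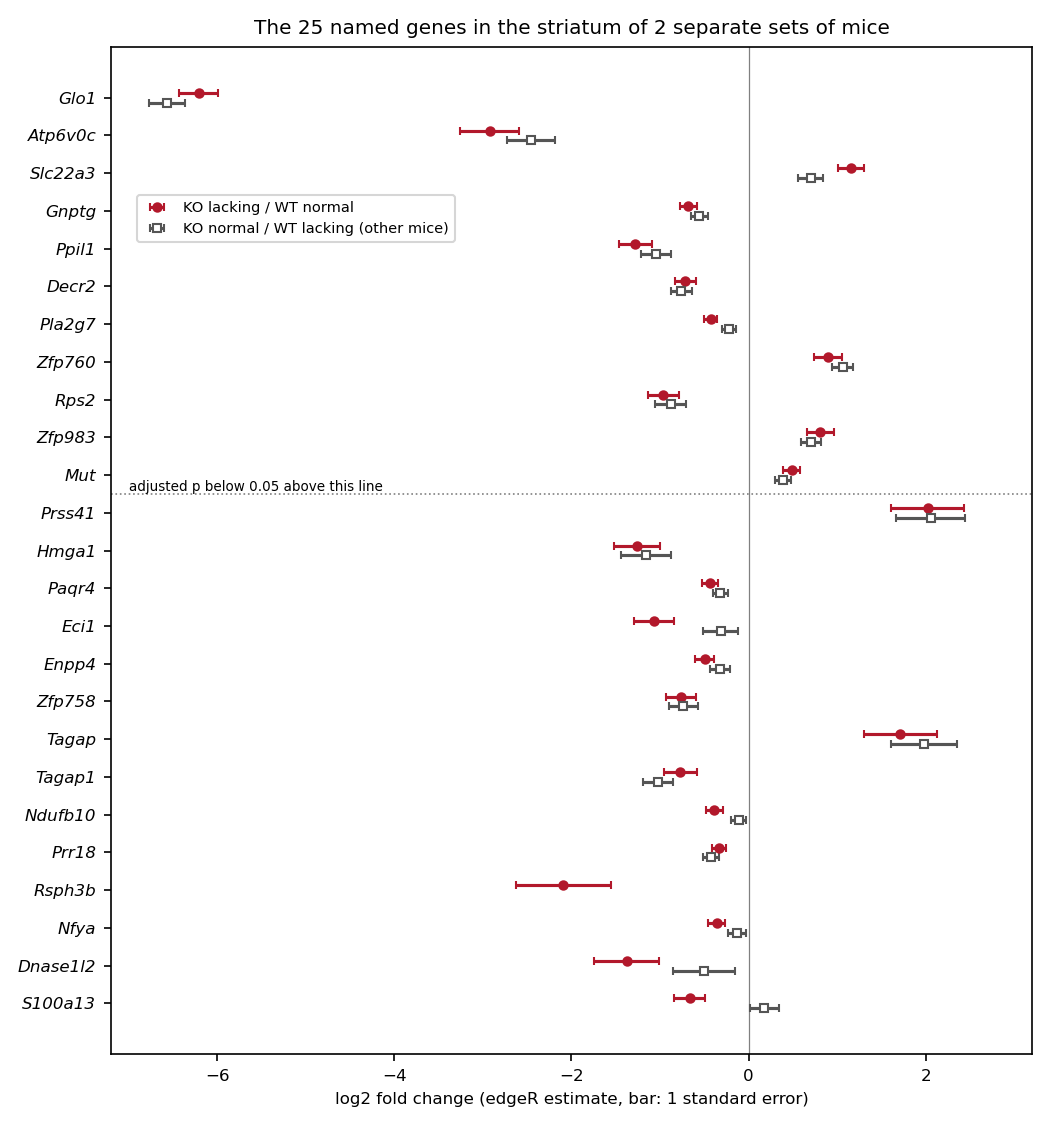
Log2 fold changes (edgeR, bars of 1 standard error) of the 25 named genes in the 10 compared libraries (filled circles) and in the 10 other striatal libraries, KO on the normal diet over WT on the lacking diet (open squares); Rsph3b was not fitted in the other mice. Points of the 11 genes above the dotted line lie on the same side of 0 in both sets, and S100a13 changes side.

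Between diets within a genotype, 0 genes were called. KO mice on the lacking diet against KO mice on the normal diet gave 0 of 13311 genes by edgeR and 0 by DESeq2 and by limma on log2(RPKM + 1), with 224 genes at an unadjusted p below 0.05 in edgeR, 248 in DESeq2 and 254 in limma. In WT mice the lacking against the normal diet gave 0 genes by edgeR, with 387 at an unadjusted p below 0.05, and no other tool was run. KO against WT mice both on the normal diet, which shares its WT libraries with the comparison described here, gave 8 genes (0.0601%), 3 higher (0.0225%) and 5 lower (0.0376%), all on chromosome 17. KO against WT mice both on the lacking diet, which shares its KO libraries, gave 17 (0.128%), 5 higher (0.0376%) and 12 lower (0.0902%). For these 17 the positions were not counted, and neither another tool nor a fit with a library left out was run. With the normal diet in both genotypes, the fitted log2 change was -6.43 for Glo1, -2.24 for Atp6v0c, 0.97 for Slc22a3 and 0.98 for Zfp760, beside -6.21, -2.92, 1.16 and 0.90 when the KO mice had eaten the lacking diet.

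WT mouse 317 was looked at further after its values had been seen. Of the 23 named genes of chromosome 17 other than Glo1, mouse 317 was the WT mouse on the normal diet nearest to the KO side for 11 in striatum, 15 in prefrontal cortex and 11 in hippocampus, and the highest of the other 4 mice reached 7, 3 and 6. Prss41 was at 4.12 CPM in its striatum, 2.64 in its prefrontal cortex and 1.83 in its hippocampus, where the other WT mice on the normal diet had at most 1.72, 0.400 and 0.208 CPM. Glo1 itself was at 35.3 CPM in its striatum, within the range of the other WT mice. Among the WT mice on the lacking diet, mouse 241 held the same place, nearest to the KO side for 10, 14 and 11 of the 23 genes. Mouse 226 followed with 7, 5 and 7. The 23 genes lie on the same chromosome and were named from the striatal comparison, so these counts are not independent. In striatum mouse 241 had Prss41 at 3.99 CPM and Glo1 at 39.2 CPM. Without mouse 317 the striatal comparison called Prss41, Paqr4, Zfp758, Rnaset2b and Sstr5 in addition and no longer called Mut. Sstr5, a somatostatin receptor gene named after its values were seen, was at 5.14, 5.02, 5.37, 4.75 and 3.12 CPM in the KO mice on the lacking diet, at 3.60 CPM in mouse 317 and at no more than 0.916 CPM in the other 4 WT mice on the normal diet.

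**Figure D4:**
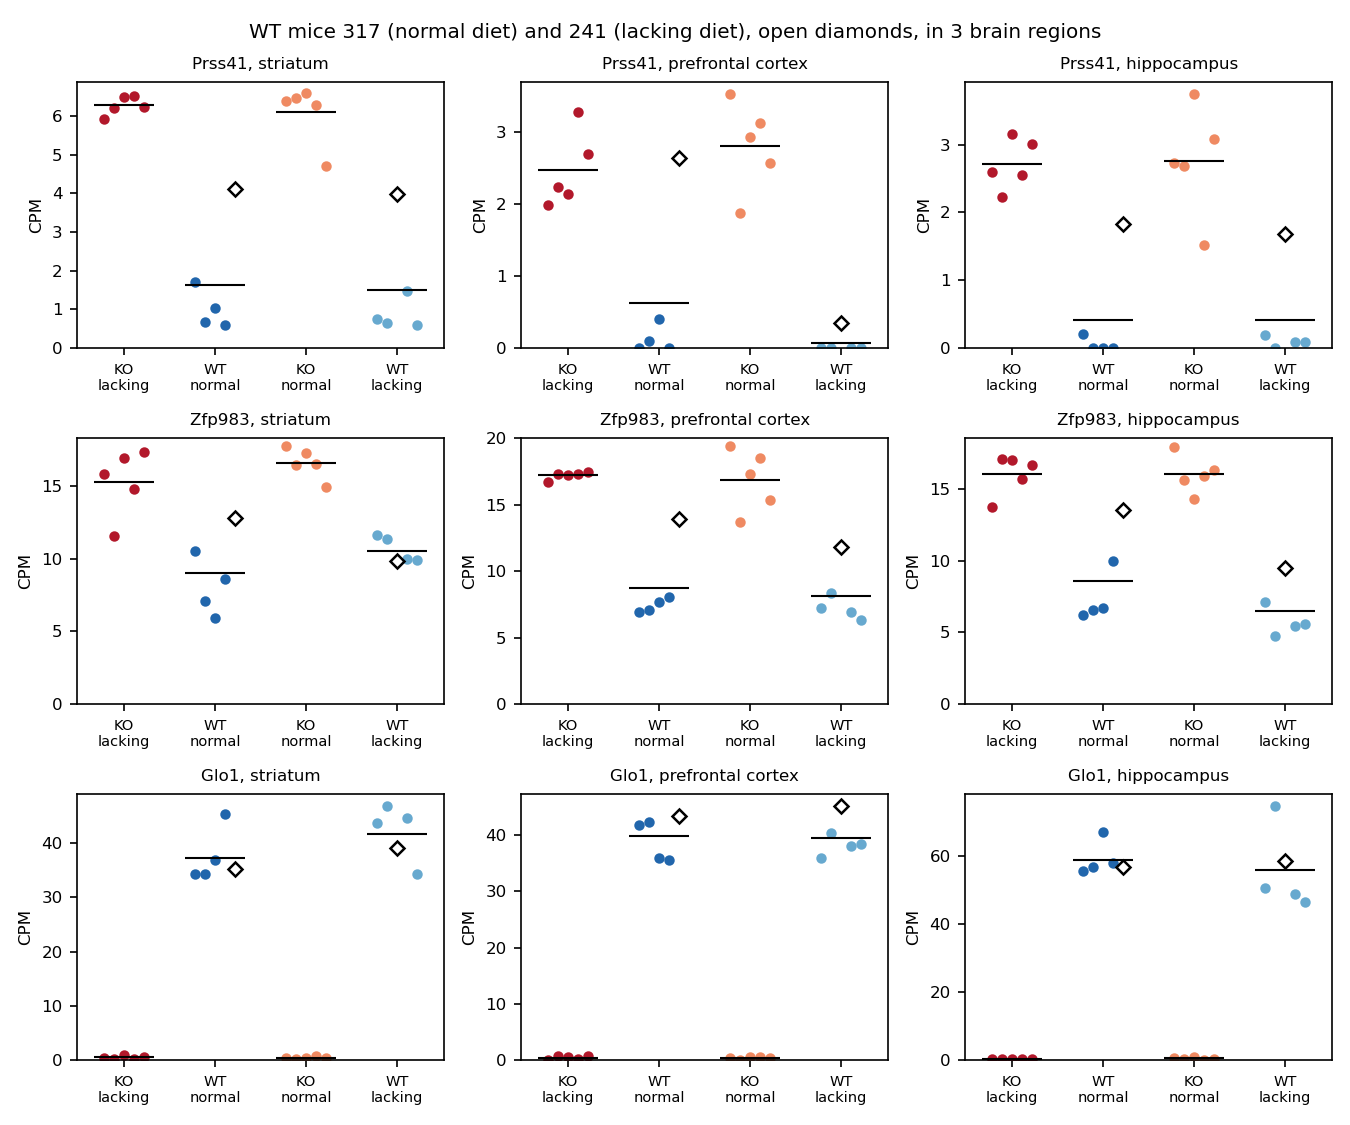
CPM of Prss41, Zfp983 and Glo1 in striatum, prefrontal cortex and hippocampus for the 4 groups of 5 mice (points, with lines at group means); open diamonds are WT mice 317 and 241. For Prss41 in striatum the diamonds, at 4.12 and 3.99 CPM, lie between the other WT mice and the KO mice, whereas for Glo1 they lie among the WT mice.

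Pathways and cell types were described with 35 gene lists holding 1245 tested genes, of which 4 passed, beside 11 of the 13311 genes (0.0826%) overall: Atp6v0c, Rps2, Zfp760 and Zfp983, all on chromosome 17. The other 32 lists had 0 members past the threshold. The median log2 fold change over all genes tested was 0.00, with the quartiles at -0.11 and 0.09, and 24 lists had a median below 0 and 11 above.

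**Figure D5:**
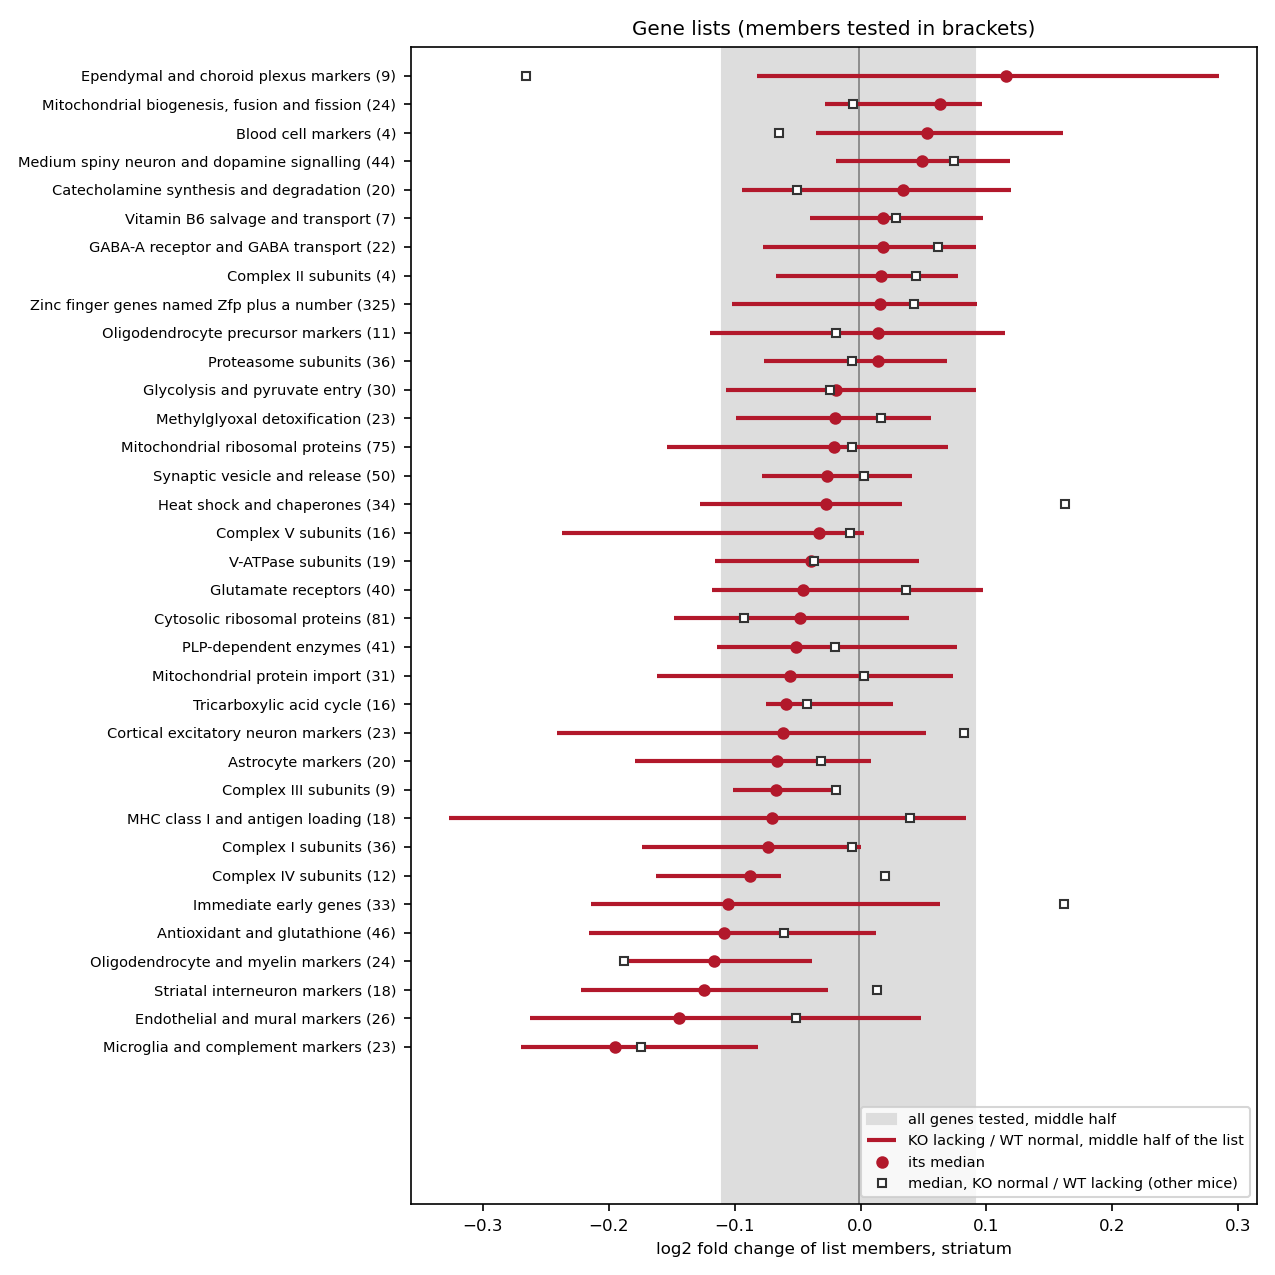
Median (filled circle) and range between quartiles (bar) of the log2 fold changes of each gene list, with the number of members tested in brackets, and the median in the 10 other striatal mice (open square); the grey band runs between the quartiles of all genes tested. The list medians of the compared mice run from -0.20 (microglia) to 0.12 (ependymal and choroid plexus), and for 16 of the 35 lists the square lies on the other side of 0 from the circle.

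Of the 23 tested genes of methylglyoxal detoxification other than Glo1, 0 passed and 1 had an unadjusted p below 0.05, and their median log2 fold change was -0.02. That gene was Aldh1a2, a retinaldehyde dehydrogenase, at -0.92 (SE 0.431, adjusted p = 0.914). The 7 genes of VB6 salvage and transport had a median of 0.02, 0 at an unadjusted p below 0.05, and a smallest p for Prosc, the pyridoxal phosphate binding protein gene, at 0.13 (SE 0.0799, adjusted p = 0.914). Among 41 enzymes that need pyridoxal phosphate, 0 passed, and 14 had a log2 fold change above 0 and 27 below. The smallest p-values belonged to Etnppl, which breaks down phosphoethanolamine in astrocytes (-0.47, SE 0.158, unadjusted p = 0.00630), and to Ddc, the decarboxylase that makes dopamine and serotonin (0.46, SE 0.155, unadjusted p = 0.00716). Ddc did not overlap between the groups, at 5.77 CPM on average in the KO mice on the lacking diet and 4.31 CPM in the WT mice on the normal diet, and its log2 fold change in the other mice was 0.07.

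The nuclear genes of the respiratory chain had medians slightly below 0. They were -0.07 for 36 genes of complex I, with 27 below 0 and 9 above, -0.07 for 9 of complex III, -0.09 for 12 of complex IV and -0.03 for 16 of complex V, against 0.02 for 4 of complex II. No member passed, and 7 of these 77 genes, all lower, had an unadjusted p below 0.05. Among all 13311 genes, 380 were lower with such a p. Ndufb10, which lies beside Rps2 on chromosome 17, was among the 7. In the other mice the medians were -0.01, -0.02, 0.02, -0.01 and 0.04 for complexes I, III, IV, V and II. For complex I the summed level was 1312 to 1493 CPM in the KO mice on the lacking diet and 1450 to 1571 CPM in the WT mice on the normal diet, with overlapping ranges. The 13 mitochondrially encoded genes of the table held 0 counts. Lists of glycolysis (30 genes) and of the tricarboxylic acid cycle (16 genes) had medians of -0.02 and -0.06 and 1 member each at an unadjusted p below 0.05, Pfkfb2 and Glud1.

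Of 46 antioxidant and glutathione genes, 0 passed, 16 lay above 0 and 30 below, and the median was -0.11. The smallest p was that of the metallothionein gene Mt2 (-0.72, SE 0.228, unadjusted p = 0.00426). Among 34 heat shock and chaperone genes the median was -0.03, and the small heat shock protein gene Cryab was at 30.1 CPM against 43.1 CPM on average, with a log2 fold change of -0.48 (SE 0.106, adjusted p = 0.103). Cryab passed in DESeq2 and in edgeR without KO mouse 339 or without WT mouse 273. In the other mice its log2 fold change was 0.18. The V-ATPase genes other than Atp6v0c and the ribosomal genes other than Rps2 had 0 members past the threshold, and the medians of the whole lists were -0.04 over 19 genes and -0.05 over 81 genes.

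The 44 genes of medium spiny neurons and dopamine signalling had a median of 0.05, with 32 above 0 and 12 below, and 0 past the threshold. Arpp21 and Pde10a, which are among their most abundant members, had log2 fold changes of 0.09 and 0.07 at levels of 4066 and 3051 CPM in the KO mice on the lacking diet. Tac1, the substance P precursor gene of the direct pathway, was at 0.22 (SE 0.104, unadjusted p = 0.0438), and Eya1 at -0.28 (SE 0.110, unadjusted p = 0.0193). Genes of glutamate receptors (40), GABA-A receptors and GABA transport (22) and synaptic vesicles (50) had medians of -0.05, 0.02 and -0.03. The scaffold gene Homer1, on the list of 33 immediate early genes, was at 0.28 (SE 0.106, unadjusted p = 0.0146) without overlap, while that list had a median of -0.11 and one of 0.16 in the other mice.

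Markers of other cell types were read as levels of bulk tissue, in which fewer cells of a type and less RNA per cell cannot be told apart. The lowest median was that of 23 microglia and complement genes, -0.20, with 19 below 0 and 4 above, and 0 past the threshold. Of these 23 genes 4 had an unadjusted p below 0.05, all lower, beside 380 of all 13311 genes in that direction. The summed level of the 23 genes was 617 to 683 CPM in the KO mice on the lacking diet and 677 to 754 CPM in the WT mice on the normal diet, with a slight overlap. P2ry12 and Ctss, which are among the most abundant members, had log2 fold changes of -0.07 and -0.07, and the receptor chain gene Fcer1g had -0.60 (SE 0.216, unadjusted p = 0.0103). Medians were -0.14 for 26 endothelial and mural genes, -0.12 for 18 striatal interneuron genes, -0.12 for 24 oligodendrocyte genes, -0.07 for 20 astrocyte genes, 0.01 for 11 oligodendrocyte precursor genes and -0.06 for 23 genes of cortical excitatory neurons, with 0 past the threshold in each. In the other mice these medians were, in the same order, -0.05, 0.01, -0.19, -0.03, -0.02 and 0.08, and that of the microglia list was -0.17. The interneuron genes summed to 415 to 483 CPM in the KO mice on the lacking diet and 473 to 546 CPM in the WT mice on the normal diet, also overlapping, and Nos1, which marks a class of them, was at -0.20 (SE 0.0841, unadjusted p = 0.0286). Cortical markers summed to 4380 to 6046 CPM and 4383 to 5368 CPM in the KO and WT mice, and the part of tissue composition in the differences above was not tested.

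The remaining lists had medians of 0.06 for 24 genes of mitochondrial biogenesis, fusion and fission, -0.06 for 31 of mitochondrial protein import, -0.02 for 75 mitochondrial ribosomal proteins, 0.01 for 36 proteasome subunits, 0.03 for 20 genes of catecholamine synthesis and degradation, -0.07 for 18 genes of class I antigen presentation, 0.12 for 9 ependymal and choroid plexus genes, 0.05 for 4 blood cell genes and 0.02 for 325 zinc finger genes named Zfp plus a number. Only the last held called members, Zfp760 and Zfp983. Park2, the parkin gene on chromosome 17, had a log2 fold change of 0.42 (SE 0.131, unadjusted p = 0.00410). H2-T22, a class Ib histocompatibility gene on chromosome 17, had one of -0.94 (SE 0.227, adjusted p = 0.228) and -0.80 in the other mice. The related gene H2-T24 had 0.61 (SE 0.204, unadjusted p = 0.00626) and 1.08 in the other mice.

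Between regions, the same contrast of the same mice called 37 of 13223 genes (0.280%) in prefrontal cortex, 7 higher (0.0529%) and 30 lower (0.227%), and 2 of 13393 (0.0149%) in hippocampus, but 0 of 13930 genes differed in effect between striatum and prefrontal cortex or between striatum and hippocampus in edgeR (455 and 544 at an unadjusted p below 0.05), and 0 in DESeq2 (494 and 571). With limma on log2(RPKM + 1), Slc22a3 and Sstr5 differed from prefrontal cortex, and Glo1, Slc22a3 and Sstr5 from hippocampus, whereas limma on log2(RPKM + 0.1) called 0 in both (487 and 519 at an unadjusted p below 0.05). For Slc22a3 the edgeR difference from hippocampus was -0.02 (SE 0.226, unadjusted p = 0.941). In prefrontal cortex the log2 fold changes were -2.24 for Atp6v0c (SE 0.340), -1.32 for Ppil1 (SE 0.184), -0.62 for Decr2 (SE 0.102) and 0.94 for Zfp983 (SE 0.172). In hippocampus they were -3.53 (SE 0.313), -0.73 (SE 0.221), -0.54 (SE 0.102) and 0.91 (SE 0.182).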

How the data were processed

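Poly(A) RNA from 2 µg of total RNA per sample was read as single 75-bp ends, per the labels' protocols. Per the submitters' processing notes, STAR 2.7.1a, HTSeq 0.9.1 and the mm10 build were used, and strand settings are not given in the sources used here. The authors deposited raw counts per gene for 21999 genes, and the deposited RPKM values are scaled by gene length and library total. Columns were matched to samples by name, and 21893 symbols were placed with GENCODE or RefSeq annotation of GRCm38, the assembly of mm10.

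Counts of the 20 striatal libraries were fitted with edgeR 4.0.16 in R 4.3.3 (TMM factors, filterByExpr at 10 counts per library and 15 in total, quasi-likelihood F-tests, a mean per group). P-values were two-sided and Benjamini-Hochberg adjusted over all genes tested, with a threshold of 0.05. Standard errors were the absolute log2 fold change divided by the square root of the F statistic. They can be too small where a group has few counts, as for Glo1 in the KO mice. CPM and the 3-count floor use library totals and cover counting error only. The 10 other striatal libraries, which were part of that fit, were also fitted separately. Differences in effect between regions came from a fit of all 60 libraries with a mean per group and no mouse block. Alternatives were DESeq2 1.42.0, limma 3.58.1 on log2(RPKM + 1) or log2(RPKM + 0.1), no TMM factors, other count filters, the RNA integrity number as a covariate, a fit of 2 groups and leaving out each library. The fits were tested on simulated data.

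Named were Glo1, every gene past the threshold, the next by p without overlap up to 25, and in each list the 3 members with the smallest p, with the 3 most abundant for cell types; some that the rule names are not reported here. The comparison, members and lists were chosen with earlier results of these data known. Replicates were separate mice, per the labels. Pairs of libraries of a group differed beyond counting error (chi-square per gene 3.85 to 25.6).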

Additional observations from a re-analysis of the deposited data

Results flagged for a closer look

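In 122 sets of 5 libraries or mice (named genes, list sums and VB6 levels in each compared group), 5 had a library farther from the others than Dixon's criterion allows, where chance gives about 1 in 20, or 6.1. Complex IV subunits summed to 1122 CPM in KO mouse 244 on the lacking diet against 850 to 908 CPM in the other 4, and to 882 CPM in WT mouse 317 on the normal diet against 1031 to 1083 CPM. Astrocyte markers summed to 11127 CPM in KO mouse 339 against 12197 to 12483 CPM. Glo1 was at 45.4 CPM in WT mouse 286 against 34.2 to 36.9 CPM, and Nfya at 26.8 CPM in WT mouse 317 against 22.7 to 23.8 CPM.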

How the results depend on the processing

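The 11 called genes became 24 with DESeq2 (23 on chromosome 17, the other being Cryab, with all 11 included), 17 with limma on log2(RPKM + 1), 7 in a fit of the 2 compared groups alone (1 higher and 6 lower) and 7 to 15 when 1 library was left out. No TMM factors, a 1 CPM filter and the RNA integrity number as a covariate each gave 11, no filter gave 13 and limma on log2(RPKM + 0.1) 10. Glo1, Atp6v0c, Slc22a3, Gnptg, Ppil1 and Decr2 passed under all 8 alternatives and in all 10 fits with 1 library left out, and 0 of the 25 named genes changed direction. Called members of the lists numbered 4, and 7 with DESeq2, 2 with the 2 groups alone and 1 to 5 with 1 library left out. For the other mice the 10 calls became 22 with DESeq2, 3 with the RNA integrity number and 3 to 10 with 1 library left out. KO against WT on the normal diet gave 8 calls, 15 with DESeq2, 13 with limma on log2(RPKM + 1), 5 with the 2 groups alone and 6 to 12 with 1 library left out. KO on the lacking against KO on the normal diet gave 0 with every library left out in turn. Region differences gave 0, but 2 (prefrontal cortex) and 3 (hippocampus) with limma on log2(RPKM + 1), and 0 to 0 with 1 library left out. The VB6 difference of -60.5 ng/µl was -56.2 ng/µl as a difference of medians (exact permutation p = 0.119) and between -62.0 and -57.2 ng/µl with 1 mouse left out. The causes of these moves were not tested. At these depths a gene of 3 counts lies at 0.224 to 0.358 CPM, which limits what can be read from genes such as Rsph3b.

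No paired analysis was possible within striatum because the compared groups share no mouse. Between regions, where each mouse gave all libraries, the fit with the mouse as a replicate block also called 0 genes against prefrontal cortex and 0 against hippocampus, with 474 and 640 genes at an unadjusted p below 0.05.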

Other observations

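Values of further genes of chromosome 17, named after they were seen, are given for the compared mice and the 10 other striatal mice. None passed in the compared mice, and Rnaset2b and Pkmyt1 passed in the other mice. Rnaset2b, a ribonuclease gene, had a log2 fold change of -3.35 (SE 0.743, adjusted p = 0.111) at 0.0955 against 1.24 CPM on average, and -3.50 (SE 0.581, adjusted p = 0.0371) in the other mice. Sstr5 had 2.35 (SE 0.590, adjusted p = 0.264) and 2.49 (SE 0.475, adjusted p = 0.0892). Fndc1, a fibronectin domain gene, had 0.82 (SE 0.223, adjusted p = 0.463) and 0.93 (SE 0.194, adjusted p = 0.158). Pkmyt1, a kinase that restrains entry into mitosis, had -0.86 (SE 0.488, adjusted p = 0.914) and -2.32 (SE 0.396, adjusted p = 0.0371).

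Of the 35 gene lists, 16 had medians of opposite sign in the 2 sets of mice. Among them the medians were 0.12 and -0.27 for the 9 ependymal and choroid plexus genes, -0.11 and 0.16 for the 33 immediate early genes and -0.03 and 0.16 for the 34 heat shock genes. The difference between the sets was not tested.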
